A study of Mus musculus with 18 samples.

Results

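The genes described here are 9 acute phase genes measured in mouse adipose tissue: Hp, Orm1, Orm2, Saa1, Saa2, Saa3, Lcn2, Cp and Steap4. They were taken by symbol from a table of 54347 genes, and 7 of the 9 were among the 18728 genes left by a filter on low counts. Saa1 and Saa2 did not pass the filter and are given as counts only. The libraries came from interscapular brown (iBAT), inguinal white (iWAT) and epididymal white adipose tissue (eWAT) of 6 mice, 3 of them wild type (wt) and 3 knockout (ko) for the long noncoding RNA gene Gm15551, and the study asked what its loss changes in adipose tissue. All animals were litter mates on the C57BL/6N background, 12 weeks old and fed chow, and each gave 1 library per tissue, so that the 18 libraries formed 6 groups of 3. The knockout mice came from 1 line, in which CRISPR/Cas9 had removed a stretch with exon 1 of Gm15551 from the germline, so not from adipose tissue alone, and which was then backcrossed. Values are estimated counts, given below as CPM, counts normalised to a library total that was scaled by the trimmed mean of M values (TMM).

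Acute phase proteins are secreted into plasma in larger or smaller amounts during inflammation, infection or injury. The liver is their best known source, where interleukin 6 acts through STAT3 and interleukin 1 and tumour necrosis factor act through NF-κB and C/EBP factors, with glucocorticoids adding to both. Adipose tissue makes some of them too: haptoglobin (Hp) binds free haemoglobin, orosomucoids (Orm1, Orm2) bind drugs and lipids, serum amyloid A proteins (Saa1, Saa2, Saa3) ride on high density lipoprotein, lipocalin 2 (Lcn2) binds iron-loaded siderophores, and ceruloplasmin (Cp) is a copper-bearing ferroxidase. Steap4 is not a plasma protein but a membrane metalloreductase for iron and copper.

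Total counts per library ranged from 14997901 to 34389586, and 3 counts, the limit that a count of 0 allows, corresponded to 0.0728 to 0.235 CPM. Gm15551 had 40 to 316 counts in each wild type library and 0 to 4 in each knockout library, as labelled. Summed brown adipocyte markers (Ucp1, Cidea and 4 others) reached 6917 to 12318 CPM in iBAT, 26.9 to 315 CPM in iWAT and 7.18 to 21.98 CPM in eWAT, so the tissue labels held. Several white tissue libraries stood apart. Lymphocyte markers summed to 942 CPM in iWAT wt replicate 3 and 404 CPM in iWAT ko replicate 2 against at most 20.3 CPM elsewhere, skeletal muscle markers to 4231 CPM in iWAT ko replicate 1, and epididymis markers to 5096 CPM in eWAT ko replicate 3 and 35.3 CPM in eWAT wt replicate 1 against at most 2.86 CPM elsewhere. Epithelium markers were at 61.4 to 1033 CPM in 5 libraries (iWAT wt replicate 3, iWAT ko replicates 2 and 3, eWAT wt replicate 1 and eWAT ko replicate 3) and at 0.0619 to 6.95 CPM in the other 13. The 4 libraries with genes of other tissues that some fits below leave out are iWAT wt replicate 3, iWAT ko replicates 1 and 2 and eWAT ko replicate 3, and eWAT wt replicate 1 stays in those fits. In bulk tissue, fewer cells of a type and less RNA per cell cannot be told apart. Hepatocyte markers summed to 3.11 to 29.6 CPM over all libraries. Alb gave most of the sum in iWAT (3.13 to 28.1 CPM), but in eWAT ko replicate 3 Fga was at 10.2 CPM and Alb at 1.58 CPM, and in iBAT Apoa2 (0.743 to 2.19 CPM) was of similar height to Alb (1.55 to 1.88 CPM). Fgb reached 4.41 CPM in iWAT ko replicate 2 and 2.13 CPM in iWAT ko replicate 3, while Ahsg, F2 and Cyp2c29 stayed at or below 0.461 CPM.

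The genes lie at 6 places in the genome (GRCm38, GENCODE M21, all protein coding). Hp is at chr8:109575128-109579172 (minus strand), Cp at chr3:19957054-20009145 (plus strand), Lcn2 at chr2:32384633-32388252 (minus strand) and Steap4 at chr5:7960457-7982213 (plus strand). Orm1 (63344560 to 63348163) and Orm2 (63362449 to 63365878) lie on the plus strand of chromosome 4, with their paralog Orm3 between them, 7998 bases from Orm1 and 2937 from Orm2. On chromosome 7, Saa3 (46711998 to 46715700) and Saa1 (46740497 to 46742980) are on the minus strand and Saa2 (46751790 to 46754313) on the plus strand, with 8809 bases between Saa1 and Saa2, which point away from each other. Near-identical copies limit which gene a read can be given to. Of all 50-base windows in its transcripts, Saa1 shares 31.5% and Saa2 30.0% with another gene, nearly all with each other, while Orm2 shares 22.7% and Orm1 20.4%, mostly with each other. Saa3 shares 3.57%, mostly with genes outside the family, and Hp, Lcn2, Cp and Steap4 share 0.

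Promoter sequence is shown for genes that the results turn on, from RefSeq (GRCm38.p6), as the 190 bases from 250 to 61 before the annotated start, 5′ to 3′ on the strand of the gene. Windows were matched by symbol for 7 of the 9 genes, not for Hp and Orm1. They were searched on both strands for TTCNNNGAA (STAT), which 5.51% of all 32851 windows of this kind held, for GGGA and CC with any 4 bases between them (NF-κB, 13.03%) and for TTNNGNAAT (C/EBP, 8.34%). Steap4 held a match of each kind, which capitals mark in its window at chr5:7960222-7960411 (plus strand): an NF-κB match at bases 250 to 241, a STAT match at 116 to 108, where the pattern matches on both strands, a C/EBP match at 87 to 79 and an NF-κB match on the minus strand at 73 to 64.
Steap4: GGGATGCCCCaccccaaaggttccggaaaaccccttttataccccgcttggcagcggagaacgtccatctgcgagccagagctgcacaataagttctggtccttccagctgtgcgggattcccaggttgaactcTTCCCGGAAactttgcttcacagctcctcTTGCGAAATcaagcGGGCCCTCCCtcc
Of the windows not shown, that of Orm2 held a C/EBP match on the minus strand at 109 to 101, and the later of 2 windows of Cp held an NF-κB match on the minus strand at 146 to 137, with none in the other window. The genes with the widest spread between libraries, Saa3 (chr7:46715737-46715926, minus strand) and Lcn2 (chr2:32387800-32387989, minus strand, partly a coding exon of a longer annotated transcript), held none of these letters in this window, which says nothing about the factors themselves.
Saa3: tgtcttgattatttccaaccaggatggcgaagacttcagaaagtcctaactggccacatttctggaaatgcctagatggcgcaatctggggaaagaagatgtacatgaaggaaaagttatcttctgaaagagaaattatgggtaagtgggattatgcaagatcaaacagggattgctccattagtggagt
Lcn2: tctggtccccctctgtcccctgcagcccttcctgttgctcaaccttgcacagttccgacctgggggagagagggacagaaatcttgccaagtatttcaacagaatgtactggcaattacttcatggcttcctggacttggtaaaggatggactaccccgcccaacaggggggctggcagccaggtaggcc
The windows of Saa1 (chr7:46743041-46743230, minus strand) and Saa2 (chr7:46751583-46751772, plus strand) are shown because they share long stretches, with a C/EBP match on the minus strand in each (capitals), while both genes were close to silent here.
Saa1: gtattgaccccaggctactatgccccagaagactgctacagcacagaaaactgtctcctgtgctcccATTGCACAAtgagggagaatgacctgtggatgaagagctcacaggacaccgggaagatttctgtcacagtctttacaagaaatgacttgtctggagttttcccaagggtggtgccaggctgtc
Saa2: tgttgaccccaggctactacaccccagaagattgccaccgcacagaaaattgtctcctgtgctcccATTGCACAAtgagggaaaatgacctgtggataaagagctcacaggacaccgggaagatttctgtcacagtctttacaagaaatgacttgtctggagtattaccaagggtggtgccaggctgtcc

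The levels of the genes in fat were far apart. Per kilobase of transcript, Hp averaged 868 CPM in brown fat, 1135 in iWAT and 1911 in eWAT. Orm1 followed in iBAT at 167 CPM per kilobase, then Steap4 at 72.9 and Cp at 11.5, and the library ranges of these 4 genes did not overlap there. In iWAT the order of means was the same (178 for Orm1, 117 for Steap4 and 46.2 for Cp, in CPM per kilobase), but the range of Orm1 overlapped with those of Steap4 and Cp. In eWAT Steap4 (134) stood above Orm1 (82.0) and Cp (44.6), and Orm1 overlapped with both. Orm2, Lcn2 and Saa3 were far lower in iBAT, with overlapping neighbours at 1.04, 0.587 and 0.163 CPM per kilobase, whereas in eWAT Lcn2 averaged 24.0, Saa3 3.79 and Orm2 0.510. The eWAT means of Lcn2 and Saa3 rested on few high libraries. Before division by length, Lcn2 ranged from 1.93 to 89.1 CPM there (median 3.17) and Saa3 from 1.09 to 15.9 CPM (median 1.90).

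**Figure D1:**
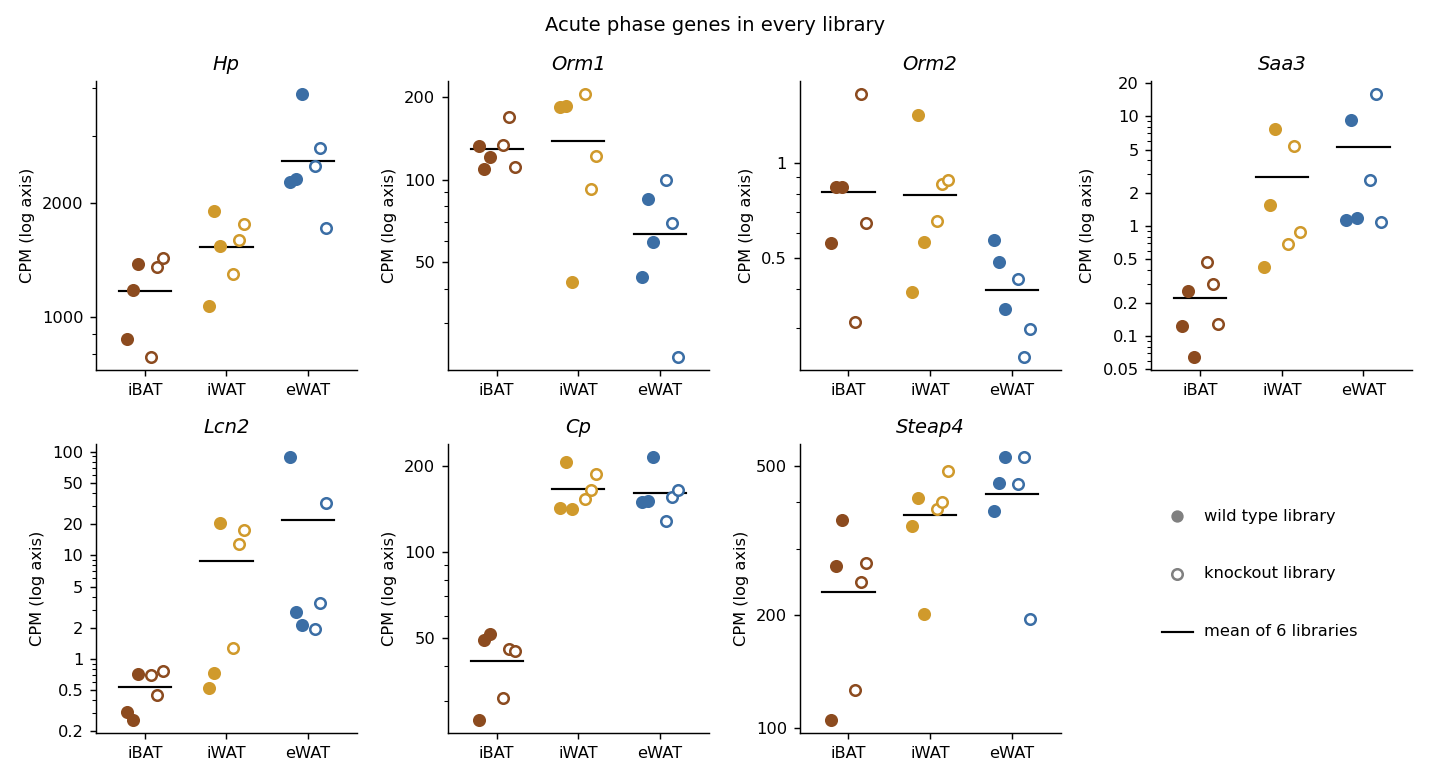
CPM (log axis) of the 7 tested genes in each of the 18 libraries, by tissue, with filled points for wild type, open points for knockout and a line at the mean of the 6 libraries of a tissue. Cp in iBAT lies below every white tissue library, and the Lcn2 panel shows 3 iWAT and 2 eWAT libraries far above the others of their tissue, 12.9 to 89.1 CPM.

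Tissues were compared with edgeR's quasi-likelihood test over all genes, in a model with tissue and genotype, and the p-values given are adjusted over all 18728 genes (Benjamini-Hochberg). Against iWAT, iBAT differed in 54.3% of all tested genes, 30.3% lower and 24.0% higher, and in 3 of the 7 acute phase genes, all lower (Cp, Saa3 and Lcn2). Saa3 and Lcn2 had few counts in iBAT and passed the filter through white tissue libraries, which favours a call of lower in iBAT. Compared with eWAT, 54.6% of all genes differed (30.2% lower and 24.4% higher), and 7 of the 7 acute phase genes passed, 5 lower in iBAT and 2 higher (Orm1 and Orm2). The number passing against eWAT was as low as 4 in some of the alternatives given below. Between iWAT and eWAT, 10.2% of all genes differed (5.7% higher and 4.5% lower in iWAT) and 1 of the 7 acute phase genes, Hp, which was lower in iWAT. The median log2 fold change of all tested genes was -0.14 for iBAT minus iWAT, -0.17 for iBAT minus eWAT and 0.01 for iWAT minus eWAT, and that of the 7 genes was -0.69, -1.14 and -0.19. The 3 comparisons share libraries pairwise and are not independent of each other.

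**Figure D2:**
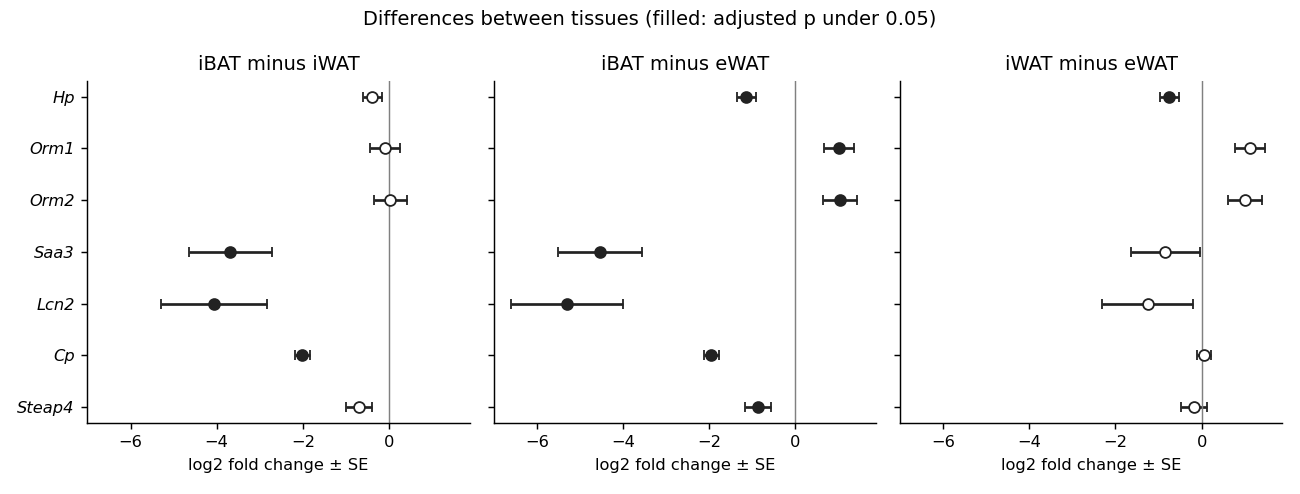
Log2 fold change with its standard error (SE) for the 7 tested genes in the 3 tissue comparisons, with filled points where the edgeR adjusted p was below 0.05. Cp is about 2 log2 units lower in iBAT than in either white tissue with a narrow error, while Saa3 and Lcn2 lie further out with errors near 1 log2 unit.

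Hp, the haemoglobin scavenger, was highest in epididymal fat. It ranged from 785 to 1431 CPM in iBAT (median 1267), from 1069.6 to 1900.5 CPM in iWAT (median 1569) and from 1718 to 3855 CPM in eWAT (median 2404). Every eWAT library lay above every iBAT library, whereas iWAT overlapped with both. Hp was 2.20-fold lower in iBAT than in eWAT (log2 -1.14 ± 0.22 SE, adjusted p = 2.85e-04) and 1.68-fold lower in iWAT than in eWAT (log2 -0.75 ± 0.21 SE, adjusted p = 0.0357). For iBAT minus iWAT the value was -0.39 ± 0.21 SE (adjusted p = 0.135). The call between iWAT and eWAT was lost in 16 of 32 alternatives, with an adjusted p of up to 0.127 without a single mouse (ko replicate 2) and 0.297 in the wild type libraries alone, whereas that between iBAT and eWAT held in 32 of 32.

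Orm1, in contrast to Hp, was higher in brown than in epididymal fat. Its levels were 109 to 168 CPM in iBAT (median 126), 42.5 to 204 CPM in iWAT (median 153) and 22.6 to 99.9 CPM in eWAT (median 64.4), so that iBAT and eWAT did not overlap. The lowest library in each white tissue, iWAT wt replicate 3 and eWAT ko replicate 3, was among those with the genes of other tissues. Orm1 was 2.03-fold higher in iBAT than in eWAT (log2 1.02 ± 0.35 SE, adjusted p = 0.0203). The difference between iWAT and eWAT was of similar size (log2 1.12 ± 0.35 SE) with an adjusted p of 0.0507 and passed in 8 of 32 alternatives, among them DESeq2 (1.13, adjusted p = 0.0129), the 10-count filter (1.13, adjusted p = 0.0447), the fit without the 4 libraries with genes of other tissues (1.22, adjusted p = 0.00357) and that without iWAT wt replicate 3 (1.31, adjusted p = 0.0129). Its adjusted p was highest in the wild type libraries alone (0.331). For iBAT minus iWAT the value was -0.10 ± 0.35 SE (adjusted p = 0.828). The 5 libraries with epithelial genes, left out together as a choice made after seeing the data, held the 3 lowest iWAT values (42.5, 92.4 and 122 CPM) and the 2 lowest eWAT values (22.6 and 44.4 CPM) of Orm1, which lifts both white tissues against iBAT. Without them the log2 value was -0.60 for iBAT minus iWAT, 1.32 for iWAT minus eWAT and 0.72 for iBAT minus eWAT, given as a description with no test. The call for iBAT minus eWAT was lost without mouse wt replicate 1 (0.92, adjusted p = 0.0780), without mouse ko replicate 2 (0.96, adjusted p = 0.0656) and in the wild type libraries alone (0.94, adjusted p = 0.156).

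Orm2, the near copy of Orm1, was at the edge of detection, with 4 to 41 counts per library against 457 to 5648 for Orm1. It ranged from 0.313 to 1.65 CPM in iBAT (median 0.742), from 0.390 to 1.42 CPM in iWAT (median 0.756) and from 0.243 to 0.572 CPM in eWAT (median 0.387), and all tissues overlapped. The log2 fold change of 1.04 ± 0.40 SE for iBAT minus eWAT (adjusted p = 0.0355) fell short once mouse was a block (0.94, adjusted p = 0.0673), without the 5 libraries with epithelial genes (1.12, adjusted p = 0.0706) and in the wild type libraries alone (0.66, adjusted p = 0.363), and without iBAT ko replicate 2 it was 0.66 (adjusted p = 0.145). In all, this Orm2 call was lost in 16 of 31 alternatives. For iBAT minus iWAT the log2 value was 0.03 ± 0.38 SE (adjusted p = 0.957) and for iWAT minus eWAT 1.01 ± 0.39 SE (adjusted p = 0.110). Since reads can be divided between the copies, counts were also summed over Orm1, Orm2 and Orm3: the sum averaged 149 CPM in brown fat (SD 23.5, n = 6), 145 CPM in inguinal fat (SD 65.5) and 69.7 CPM in epididymal fat (SD 29.8). The sum was higher in iBAT than in eWAT (log2 1.09 ± 0.34 SE, adjusted p = 0.0123), with 0.03 (adjusted p = 0.944) for iBAT minus iWAT and 1.06 (adjusted p = 0.0571) for iWAT minus eWAT. For the sum of Orm1, Orm2 and Orm3, the call between iBAT and eWAT was lost in the wild type libraries alone (0.99, adjusted p = 0.130) and without mouse wt replicate 1 (1.004, adjusted p = 0.0533). Without the 5 libraries with epithelial genes, which take out the 3 iWAT libraries lowest in Orm1, the sum gave -0.46 for iBAT minus iWAT, again as a description. Orm3 by itself stood at 15.0 to 22.5 CPM in iBAT against 2.67 to 10.2 CPM in the white tissues and did not overlap with them.

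Saa1 and Saa2, the serum amyloid A genes induced in liver, were close to 0 in every tissue. Saa1 held 0 to 5 counts and Saa2 0 to 4 counts per library, and the sum of both came to 14 counts over 6 libraries in iBAT, 17 in iWAT and 18 in eWAT. The summed level was at most 0.323 CPM, and no difference was detectable at this depth.

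Saa3, the serum amyloid A gene made by macrophages and adipocytes, was lowest in iBAT. It held 1 to 6 counts per library there (0.0646 to 0.470 CPM, median 0.194), 0.422 to 7.75 CPM in iWAT (median 1.22) and 1.09 to 15.9 CPM in eWAT (median 1.90). Every eWAT library was above every iBAT library, and 1 iWAT library (wt replicate 1) was below the highest of iBAT. The fitted difference was log2 -4.53 ± 0.98 SE for iBAT minus eWAT (adjusted p = 8.73e-04) and -3.68 ± 0.96 SE for iBAT minus iWAT (adjusted p = 0.00397). Saa3 passed the filter on low counts only through white tissue libraries, where it is high, so these p-values are not free of that choice. Most of the height in the white tissues came from few libraries: iWAT wt replicate 3 (7.75 CPM) and ko replicate 2 (5.39 CPM), which also held lymphocyte genes and the highest sums of macrophage markers (1503 and 1461 CPM against 79.7 to 680 CPM elsewhere), and eWAT ko replicate 2 (15.9 CPM) and wt replicate 2 (9.36 CPM), which did not stand out in the macrophage sum (596 and 593 CPM). In eWAT, the sum of all 10 neutrophil markers was 3.05 to 10.2 CPM, but it reached 198 CPM in iWAT wt replicate 3. The part of these cells in the Saa3 level was not tested. The value against eWAT was -3.68 (adjusted p = 0.00344) without eWAT ko replicate 2 and -3.72 without that mouse, and that against iWAT was -2.85 (adjusted p = 0.0130) without iWAT wt replicate 3, -2.73 without that mouse, -2.35 (adjusted p = 0.0414) without the 4 libraries with genes of other tissues and -4.41 (adjusted p = 0.0370) in the wild type libraries alone. Without the 5 libraries with epithelial genes, which held the 2 highest iWAT values (7.75 and 5.39 CPM) and the 2 lowest eWAT values (1.09 and 1.14 CPM) of Saa3, the log2 value was -5.02 for iBAT minus eWAT, -2.16 for iBAT minus iWAT and -2.86 for iWAT minus eWAT, against -0.85 (adjusted p = 0.551) for the last in all libraries. That choice by itself widens the gap between iWAT and eWAT, so these values are a description. The Saa3 call for iBAT minus iWAT was lost in that fit.

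Lcn2, the siderophore-binding lipocalin, varied most. In iBAT it was at 0.259 to 0.773 CPM (median 0.578) with 4 to 12 counts per library. In iWAT, 3 libraries were at 0.520 to 1.28 CPM, and wt replicate 3, ko replicate 3 and ko replicate 2 were at 20.4, 17.4 and 12.9 CPM. In eWAT, 4 libraries were at 1.93 to 3.47 CPM, and ko replicate 3 and wt replicate 1 were at 31.9 and 89.1 CPM. The white tissues thus split into low and high libraries in both genotypes, while iBAT and eWAT did not overlap. The fitted difference was log2 -5.31 ± 1.29 SE for iBAT minus eWAT (adjusted p = 0.00234) and -4.05 ± 1.23 SE for iBAT minus iWAT (adjusted p = 0.0106), and for iWAT minus eWAT it was -1.25 ± 1.06 SE (adjusted p = 0.496). Like Saa3, Lcn2 passed the filter on low counts through white tissue libraries, which favours a call of lower in iBAT. The value against eWAT was -3.64 (adjusted p = 0.00912) without eWAT wt replicate 1, -3.65 without that mouse, -5.91 without mouse wt replicate 3, -4.48 with the mouse as block and -6.19 (adjusted p = 0.0477) in the wild type libraries alone, and that against iWAT was -3.40 (adjusted p = 0.0445) without iWAT wt replicate 3. The call against iWAT was lost without the 4 libraries with genes of other tissues (-3.45, adjusted p = 0.0893) and in the wild type libraries alone (-4.08, adjusted p = 0.140).

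The 5 high Lcn2 libraries were the same 5 that held epithelium markers. Among the 7 markers, Epcam, an adhesion protein of epithelial cells, was at 12.3 to 183 CPM in these 5 libraries and at 0 to 0.225 CPM in the other 13, and Krt8, a keratin of simple epithelia, was at 16.1 to 323 CPM against 0 to 3.82 CPM. The keratins Krt5 and Krt14 were at or near 0 (at most 0.0879 CPM) in eWAT wt replicate 1, the library highest in Lcn2, and at 1.88 to 47.0 CPM in the other 4. The order within the 5 was not the same: eWAT ko replicate 3 had the highest sum of markers (1033 CPM) but 31.9 CPM of Lcn2, and eWAT wt replicate 1 had 159 CPM of markers and 89.1 CPM of Lcn2. Both of these eWAT libraries also held epididymis markers, at 5096 and 35.3 CPM in sum. Without these 5 libraries, a choice made after seeing the data and one that takes out the 5 highest in Lcn2, the log2 value was -2.30 ± 0.32 SE for iBAT minus eWAT, -1.60 ± 0.37 SE for iWAT minus eWAT and -0.70 ± 0.36 SE for iBAT minus iWAT, as a description. The Lcn2 call for iBAT minus iWAT was lost in that fit. The part of epithelial or epididymal cells in the Lcn2 level was not tested.

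**Figure D3:**
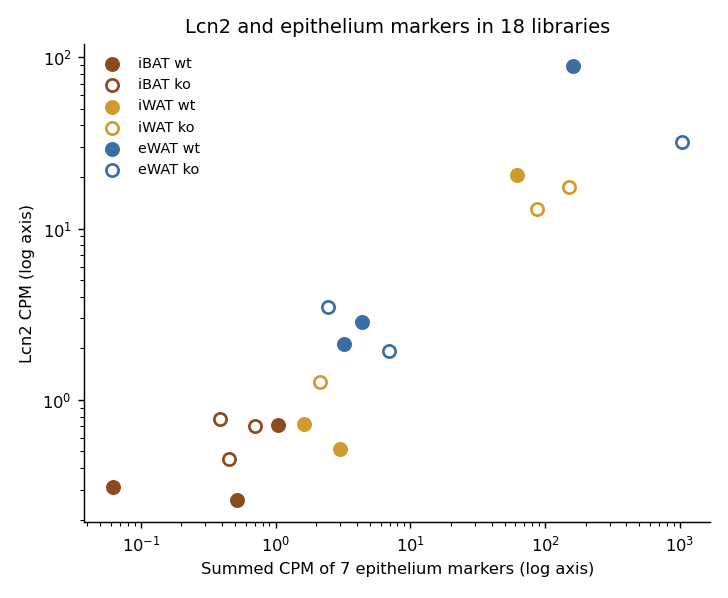
Lcn2 CPM against the summed CPM of 7 epithelium markers (both axes log) in the 18 libraries, coloured by tissue, filled for wild type and open for knockout. The 5 libraries at 61.4 to 1033 CPM of markers have 12.9 to 89.1 CPM of Lcn2, and the other 13 have 0.259 to 3.47 CPM.

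Cp, the plasma ferroxidase, was lower in brown than in both white fats. It was at 25.9 to 51.6 CPM in iBAT (median 45.4), 142 to 208 CPM in iWAT (median 160) and 128 to 216 CPM in eWAT (median 154). No iBAT library reached any white tissue library. Cp was 4.03-fold lower in iBAT than in iWAT (log2 -2.01 ± 0.18 SE, adjusted p = 8.75e-08) and 3.88-fold lower than in eWAT (-1.96 ± 0.17 SE, adjusted p = 7.93e-08), whereas iWAT and eWAT differed by 0.05 ± 0.17 SE (adjusted p = 0.877). The calls held without the 5 libraries with epithelial genes (-1.99 and -1.97).

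Steap4, the metalloreductase, was lower in brown than in epididymal fat. It ranged from 105 to 359 CPM in iBAT (median 258), from 201 to 485 CPM in iWAT (median 391) and from 195 to 529 CPM in eWAT (median 449), and all tissues overlapped. The lowest values in iBAT came from the replicate 1 mice of both genotypes (105 and 126 CPM), which were also the lowest iBAT libraries for Cp (25.9 and 30.9 CPM) and Hp (876 and 785 CPM). The lowest white tissue libraries were iWAT wt replicate 3 (201 CPM) and eWAT ko replicate 3 (195 CPM), which also had the least of the common adipocyte markers (7605 and 9958 CPM against 10891 to 23001 CPM elsewhere). Steap4 was 1.83-fold lower in iBAT than in eWAT (log2 -0.87 ± 0.30 SE, adjusted p = 0.0215), a call that 8 alternatives ended: leaving out iBAT ko replicate 1, eWAT ko replicate 2, eWAT wt replicate 3 or the mice wt replicates 1 and 2 and ko replicates 1 and 2 (adjusted p of 0.0505 to 0.0860), and the wild type libraries alone (0.135). For iBAT minus iWAT it was -0.69 ± 0.30 SE (adjusted p = 0.0639) and passed in 7 of 32 alternatives, among them DESeq2 (-0.67, adjusted p = 0.0444), the 10-count filter (-0.78, adjusted p = 0.0326), the fit without the 4 libraries with genes of other tissues (-0.85, adjusted p = 0.0331) and that without iWAT wt replicate 3 (-0.83, adjusted p = 0.0284). For iWAT minus eWAT it was -0.19 ± 0.30 SE (adjusted p = 0.7501).

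Within tissues, the standard deviation of log2 CPM was 1.94 for Lcn2 and 1.38 for Saa3, above 98.8% and 95.6% of all tested genes (median 0.406). It was 0.68 for Orm1, 0.57 for Steap4, 0.56 for Orm2, 0.35 for Hp and 0.30 for Cp. After the mean of each tissue was subtracted, Hp, Cp and Steap4 moved together over the 18 libraries (Pearson's r of 0.74 for Hp and Cp, 0.73 for Hp and Steap4, 0.69 for Cp and Steap4), whereas r was 0.07 for Lcn2 and Saa3 and -0.77 for Lcn2 and Orm1. These values are descriptions, since the 18 libraries came from 6 mice and share scaling and tissue makeup.

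The genes most like each member by the same measure, out of all those tested, were as follows. For Lcn2 they were Wfdc2 (r of 0.95), Muc15 and Aldoc (both 0.94), of which Wfdc2 and Muc15, a protease inhibitor and a mucin of epithelia, were at 0 to 0.0130 CPM on average in iBAT. Saa3 was most like Clec4e (0.90), a lectin receptor of myeloid cells, F10 (0.89) and Mcemp1 (0.88). Steap4 followed Svep1 (0.93), the acute phase gene Lrg1 (0.92) and Adcy5 (0.92). Lrg1, leucine-rich alpha-2-glycoprotein, had mean levels of 133 CPM (iBAT), 298 CPM (iWAT) and 444 CPM (eWAT). Orm1 followed Rtn4 (0.98), Tmem120a (0.97) and Gpt (0.97), an alanine aminotransferase. Hp was most like the major urinary protein genes Mup19 (0.90) and Mup22 (0.89), which belong to a family of near copies, and Nod1 (0.87). Cp followed Cyp2e1 (0.86), Gm42436 (0.86) and Gm4951 (0.84), and Orm2 was less like any gene, with Gm38393 (0.79), Acy1 (0.74) and Gm7160 (0.74) nearest.

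The wider pathway was read from 97 genes in 5 groups (inducing signals, factors, other acute phase proteins, and receptors or partners of the 9 genes), of which 83 were tested. In iBAT, 51 of the 83 were lower than in iWAT and 7 higher, and 45 were lower than in eWAT and 9 higher. The called share was 69.9% against iWAT and 65.1% against eWAT, beside 54.3% and 54.6% of all genes, and the median log2 fold change was -1.32 and -0.67 beside -0.14 and -0.17. Between iWAT and eWAT 11 of the 83 differed (13.3%, beside 10.2% of all genes), 7 of them higher in iWAT. These groups were chosen with results of these data known and give no independent support.

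Of the 13 tested genes of the interleukin 6 family and its signalling, 10 were lower in iBAT than in iWAT and 0 higher, and 8 were lower than in eWAT and 1 higher (Cntfr), which is 76.9% and 69.2% called beside 54.3% and 54.6% of all genes. Osmr, the oncostatin M receptor, was at 17.3 to 19.8 CPM in iBAT and 33.0 to 51.4 CPM in the white tissues (log2 -1.41 and -1.02, adjusted p = 1.61e-09 and 2.31e-08). Il6ra, the interleukin 6 receptor, was lower by log2 -1.81 and -1.43 (adjusted p = 4.56e-05 and 3.58e-04), Stat3 by -0.67 and -0.49 (adjusted p = 5.00e-06 and 1.02e-04), and Socs3, the feedback inhibitor that STAT3 induces, by -2.06 and -1.17. Il6 did not pass the filter, with 0 to 13 counts per library and 0 in 6 of them.

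Of the 20 tested genes for interleukin 1, tumour necrosis factor and NF-κB, 13 were lower in iBAT than in iWAT and 11 lower than in eWAT, and 0 were higher. That is 65.0% called against iWAT and 55.0% against eWAT, the latter close to the 54.6% of all genes. Il1r1, the interleukin 1 receptor, was at 9.10 CPM on average in iBAT, 40.2 in iWAT and 33.9 in eWAT (log2 -2.14 and -1.89, adjusted p = 1.32e-08 and 2.84e-08). Lbp, which carries bacterial lipopolysaccharide to its receptor and is an acute phase protein itself, was lower by log2 -3.95 and -5.24 (adjusted p = 2.99e-06 and 1.47e-07), and Tlr4 by -1.75 and -1.53 (adjusted p = 1.77e-06 and 5.87e-06). Il1r2, a decoy receptor, was at 2.46 to 26.4 CPM in iWAT against 0.0440 to 0.454 CPM in the other tissues, a log2 difference of 6.77 from eWAT (adjusted p = 1.61e-05). Tnf and Il1b reached at most 4.22 CPM in any library.

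Among the 6 tested transcription factors and glucocorticoid targets, the C/EBP genes parted ways. Cebpb was at 90.5 to 316 CPM in iBAT against 11.9 to 51.3 CPM in the white tissues (log2 2.32 against iWAT and 3.20 against eWAT, adjusted p = 4.51e-06 and 1.36e-07), while Cebpd was lower in iBAT (-1.72 and -1.73, adjusted p = 3.84e-05 and 3.05e-05). Cebpa, the C/EBP factor of mature adipocytes, differed by 0.14 and 0.11 and was not called. Fkbp5, a glucocorticoid-induced gene, rose from iBAT (46.1 to 93.4 CPM) through iWAT (76.4 to 186 CPM) to eWAT (198 to 315 CPM), and eWAT did not overlap with the others. Tsc22d3, another glucocorticoid target, was called lower in iBAT than in eWAT (-1.02) but not than in iWAT (-0.64).

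Of the other acute phase proteins, 25 of 34 were tested, and 15 were lower and 3 higher in iBAT than in iWAT (median log2 -2.46), and 10 lower and 3 higher than in eWAT (median -1.02). The called share was 72.0% against iWAT and 52.0% against eWAT, the latter below the 54.6% of all genes. Serpina3n, a protease inhibitor, was at 3.65 to 17.0 CPM in iBAT and 126 to 348 CPM in the white tissues (log2 -5.02 and -5.10, adjusted p = 2.37e-08 and 1.33e-08). Trf, transferrin, was lower by -3.60 and -4.02, and Cfb, complement factor B, by -3.90 and -3.13. Ptx3 was at 0 to 0.157 CPM in iBAT and at 0.840 to 3.85 CPM in the white tissues. In the other direction, Orm3 and the metallothionein Mt1 were higher in iBAT than in both white tissues (log2 1.57 and 1.72 for Orm3, 1.33 and 0.77 for Mt1), and Mt2 was higher than in iWAT (0.78). C3, the central complement protein, was higher in iBAT than in eWAT (0.98) and in iWAT than in eWAT (1.33, adjusted p = 0.00719). Crp and Apcs, the pentraxins made by liver, did not pass the filter.

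Receptors and partners held the iron and copper genes that work beside Cp and Steap4. Heph, a membrane ferroxidase related to ceruloplasmin, was at 4.07 to 7.89 CPM in iBAT and 31.7 to 105 CPM in the white tissues (log2 -3.67 and -3.91, adjusted p = 7.93e-08 and 2.83e-08). Steap2, a relative of Steap4, was lower by -3.10 and -5.11 (adjusted p = 1.16e-06 and 5.81e-09) and Steap3 by -1.21 and -1.14. Steap1 was not called, at 0.02 and 0.18. By contrast, the ferritin heavy chain gene Fth1 was higher in iBAT (1.07 and 1.03, adjusted p = 6.60e-06 and 7.91e-06), as were the iron exporter Slc40a1 (1.31 and 1.99) and the transferrin receptor Tfrc (1.63 and 1.03). The haptoglobin receptor Cd163, which is also a macrophage marker, was lower in iBAT (-1.82 and -1.81), and Lrp2, a receptor that takes up lipocalin 2, was at 0 to 0.462 CPM in iBAT and iWAT and at 1.16 to 66.3 CPM in eWAT, where mesothelium markers also summed to 75.5 to 141 CPM, whose part was not tested. Of the 19 tested, 13 were called against iWAT (10 lower) and 16 against eWAT (12 lower), or 68.4% and 84.2% beside 54.3% and 54.6% of all genes.

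**Figure D4:**
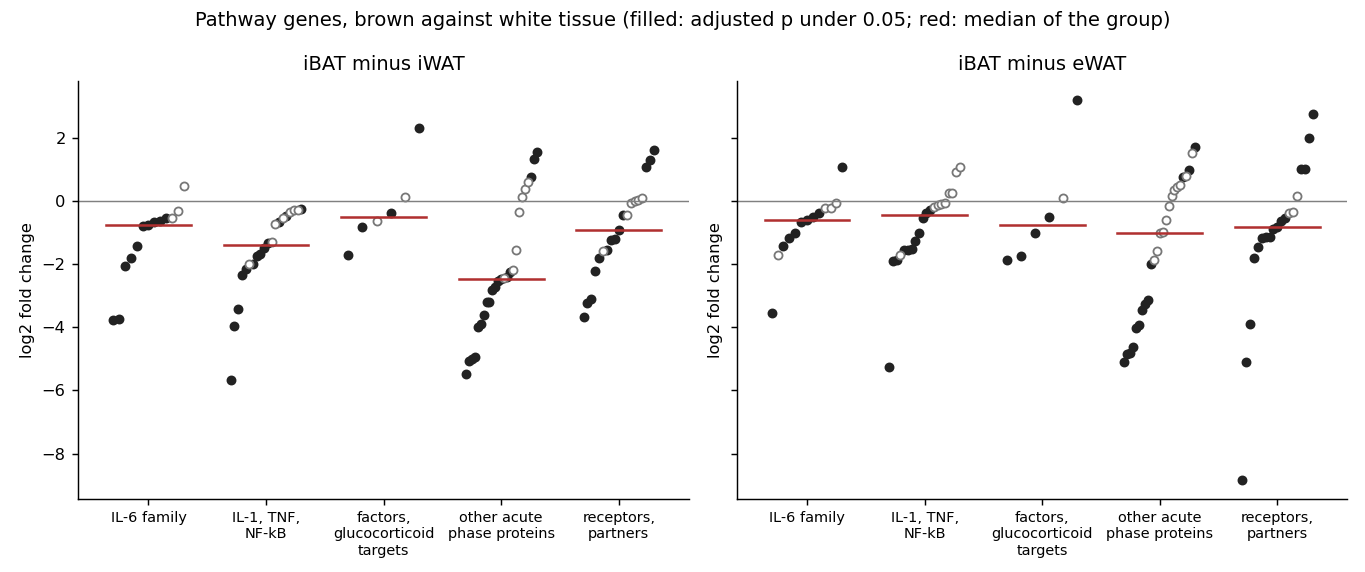
Log2 fold change of the 83 tested pathway genes in 5 groups, for iBAT minus iWAT and iBAT minus eWAT, each point a gene, filled where the edgeR adjusted p was below 0.05, with a red line at the median of the group. The medians of all groups lie below 0 and Cebpb stands alone above it among the factors called.

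The summed markers of macrophages and progenitors also had their lowest values in iBAT, without overlap with the white tissues. The 8 macrophage markers summed to 79.7 to 171 CPM (iBAT), 306 to 1503 CPM (iWAT) and 189 to 621 CPM (eWAT), and the 6 progenitor markers to 221 to 344 CPM, 1217 to 4431 CPM and 650.3 to 1285 CPM. The part of these cells in the differences was not tested.

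Loss of Gm15551 was compared last. Across tissues, 1 gene of 18728 was called (0.00534%), lower in the knockout, and 0 of the 7 acute phase genes. Within tissues, the genotype changed 0 (0.0%) by edgeR for iBAT, 0 (0.0%) for iWAT and 1 (0.00534%) for eWAT, with 238, 415 and 814 at an unadjusted p under 0.05, and DESeq2 called 13, 4 and 13. Of the 7 acute phase genes, 0 were called in each of these comparisons by edgeR and by DESeq2, and 0 were at an unadjusted p under 0.05 in edgeR. The smallest unadjusted p of a member within a tissue was 0.366, for Steap4 in iWAT, which averaged 319 ± 107 CPM without and 422 ± 54.5 CPM with the deletion (SD, n = 3) and edgeR log2 0.41 ± 0.43 SE. The genotypes overlapped for all 7 genes in all 3 tissues. This is a coarse description with 3 libraries on each side, and the share over all genes was not computed.

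The precision of the genotype comparison differed between the genes. The model across tissues had no term for mouse, so the 3 libraries of a mouse counted as separate and its errors may be too small. Across tissues the log2 fold change was -0.06 ± 0.17 SE for Hp, -0.07 ± 0.14 SE for Cp, 0.08 ± 0.28 SE for Orm1 and 0.00096 ± 0.25 SE for Steap4. It was -0.09 ± 0.31 SE for Orm2, 0.31 ± 0.71 SE for Saa3 and -0.17 ± 0.93 SE for Lcn2. With errors of this size, only large changes of Lcn2 and Saa3 could have been seen. In eWAT, the mean of Lcn2 was 31.4 CPM for wild type and 12.4 CPM for knockout, and 1 high library of each genotype (89.1 and 31.9 CPM) carried nearly all of both means. The interaction of genotype with tissue was called for 0 of the 7 genes (smallest unadjusted p = 0.536, for Steap4) and for 0 of all genes by edgeR (264 at an unadjusted p under 0.05) and by DESeq2 (314). Without the 5 libraries with epithelial genes, 1 iWAT knockout library is left, the one with muscle genes, and its spread has to be taken from other groups. Genes called in that fit for the interaction or for genotype in iWAT rest on that library and are not read here. Of the 83 pathway genes, 0 were called in any genotype comparison by edgeR or DESeq2, with 0 to 2 at an unadjusted p under 0.05 within a tissue.

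**Figure D5:**
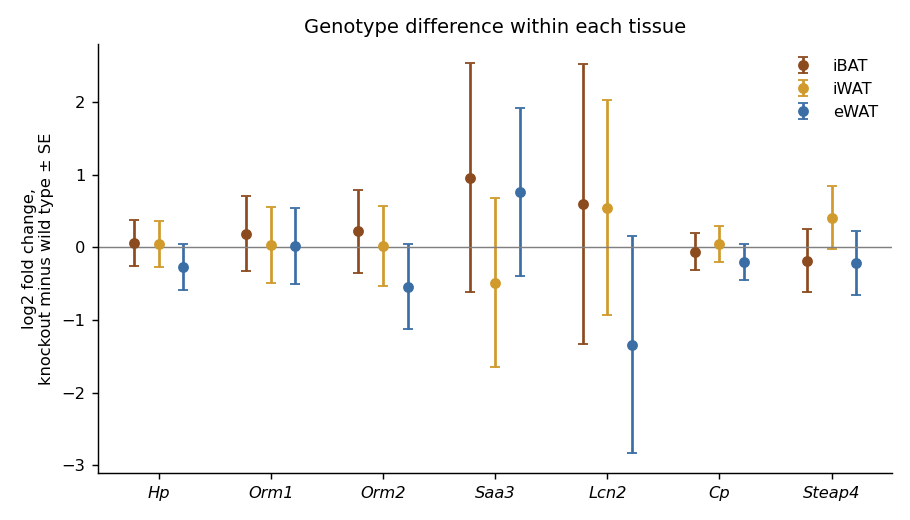
Log2 fold change with its standard error for knockout minus wild type of the 7 tested genes, by tissue (3 libraries against 3). Values lie on both sides of 0, and the error bars are longest for Saa3 and Lcn2.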

How the data were processed

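PolyA RNA from 3 adipose tissues of 6 mice (3 wild type, 3 Gm15551 knockout) was sequenced by the authors as paired-end reads from NEBNext Ultra II libraries. Reads were quality-filtered with cutadapt and quantified with salmon against the GENCODE M22 transcriptome, alone or joined with RNAcentral; which reference applied, whether strand was used and how genes were summed over transcripts are not given in the sources used here. The authors deposited a table of estimated counts per gene in whole numbers, 54347 rows by 18 libraries, with a symbol for 31886 rows; 22260 others were named from GENCODE M21. Library totals were 14997901 to 34389586 counts, and limits set by 3 counts cover counting error only.

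Genes were kept by filterByExpr over the 6 groups (18728 genes), scaled by TMM (factors 0.617 to 1.44) and tested with edgeR's quasi-likelihood test (edgeR 4.0.16, R 4.3.3) with Benjamini-Hochberg adjustment at 0.05. Tissue contrasts and the genotype contrast across tissues came from a model with tissue and genotype, and contrasts within tissues and the interaction from a model with a mean per group. Standard errors were derived from the fold change and the F statistic. For spread and likeness, log2 CPM used a prior count of 2. Positions are from GRCm38 (GENCODE M21) and promoters from RefSeq. The fit was tested on simulated data.

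The labels give a mouse identifier, so libraries of different tissues are paired by mouse. Their deviations from the group means had correlations of -0.165 to 0.326 (median 0.0573, 18 pairs, 7 over 0.1). P-values rest on the spread between libraries, and the 3 tissues of a mouse are not independent. The genotype contrast across tissues had no mouse term, so it counted them as separate and its errors may be too small. The alternatives were DESeq2's size factors, DESeq2's test (1.42.0), no filter or at least 10 counts in every library, the mouse or replicate number as a block, wild type libraries alone, and leaving out each of 18 libraries, each of 6 mice, the 4 libraries with genes of other tissues and, added after seeing the data, the 5 with epithelial genes.

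The 9 genes, the 97 pathway genes and 12 marker lists were chosen with earlier results of these data known. By rule, text examples of a pathway group were up to 4 genes with the smallest p in a contrast, and for each of the 9 genes the 3 with the highest correlation. Other pathway genes named (among them Socs3, Tnf, Cebpa, Tsc22d3, C3, Mt1, Mt2, Orm3, Steap1, Steap3, Slc40a1, Tfrc and Cd163) were picked after their values were seen.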

Additional observations from a re-analysis of the deposited data

Results flagged for a closer look

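Of 27 comparisons of a gene with itself over the 6 libraries of a tissue, 2 held a library whose gap to the nearest other exceeded Dixon's 95% limit for 6 samples as a share of the whole range. For normal values chance would give about 1.35 (1 in 20). CPM values are skewed and some lie near 0, so the 2 cannot be weighed against that number. Lcn2 in eWAT wt replicate 1 was at 89.1 CPM, with the next library at 31.9 CPM (gap of 0.656 of the range). Saa2 in iWAT ko replicate 2 was at 0.128 CPM, which is 3 counts, with the next at 0.0346 CPM (gap of 0.731), and both lie near the limit of detection.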

How the results depend on the processing

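Of 21 log2 values for tissue differences, 11 were past the threshold, and 5 of these stayed there in every alternative run: Lcn2, Saa3, Hp and Cp for iBAT minus eWAT and Cp for iBAT minus iWAT. Lcn2 and Saa3 were not tested with at least 10 counts in every library, so that alternative is missing for both. Over 663 alternative values, 574 kept direction and side of the threshold, 47 fell short of it, 18 came to pass it and 24 changed sign, all of the last for differences not called. The cause of these changes was not tested, except that fewer samples entered where libraries were left out. With the mouse as a block, Orm2 for iBAT minus eWAT was lost (0.94, adjusted p = 0.0673) and no other call of the 7 genes changed.

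The number of acute phase genes called for iBAT minus eWAT (7) was 4 with at least 10 counts in every library, where 4 were tested and Lcn2, Saa3 and Orm2 were not, 4 in the wild type libraries alone, where calls over all genes also fell, from 10220 of 18728 to 6574 of 17450, and 4 to 7 when a library or mouse was left out (8965 to 10872 over all genes). For iWAT minus eWAT (1) it was 2 with DESeq2's size factors, with at least 10 counts and by DESeq2, 0 with no filter and in wild type libraries alone, 4 without the 5 libraries with epithelial genes (1562 of 19370 over all genes, against 1911 of 18728), a choice that takes out the highest Lcn2, the 2 lowest eWAT and highest iWAT Saa3 and the lowest Orm1 values of each white tissue, and 0 to 1 with a library or mouse left out. Pathway genes called for iWAT minus eWAT (11) became 7 with at least 10 counts, 18 by DESeq2 and 2 in wild type libraries alone, while calls over all genes moved from 1911 of 18728 to 1149 of 12752, 2704 of 18728 and 247 of 17450, and 1 was called for genotype in iWAT without the 4 libraries with genes of other tissues (11 of 20162 over all genes, against 0 of 18728), a fit that leaves 1 iWAT knockout library, assumed to vary like the other groups. The calls for the sum of Orm1, Orm2 and Orm3 (1) were 2 by DESeq2, 0 in wild type libraries alone, 2 without those 4 libraries, 3 without the 5, and 0 to 2 with a library or mouse left out.

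Signs changed for Orm1, iBAT minus iWAT, with the mouse as a block (0.0032), for Orm2, iBAT minus iWAT, with no filter (-0.012), in wild type libraries alone (-0.080), without the 4 libraries (-0.14) and without the 5 (-0.0052), and for Cp, iWAT minus eWAT, in wild type libraries alone (-0.065). With a library or mouse left out, the range was -2.33 to 0.59 for Lcn2, -0.043 to 0.20 for Cp and -0.43 to 0.015 for Steap4, all iWAT minus eWAT, and -0.29 to 0.066 for Orm1 and -0.37 to 0.30 for Orm2, both iBAT minus iWAT. Replicate numbers of wild type and knockout mice share only a number (deviations correlated at -0.465 to 0.551, median -0.0280), and a block on them called 0 acute phase genes for genotype. Depth limits Saa1, Saa2, Saa3 in iBAT and Orm2, which rest on few counts.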
